A study of Mus musculus with 12 samples.

Results

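Phgdh, Psat1, Psph, Shmt1, Shmt2, Mthfd1, Mthfd2, Tyms and Asns encode enzymes of serine synthesis, of the folate-bound one-carbon cycle, of thymidylate synthesis and of asparagine synthesis. They are 9 of the 18193 genes that the array annotation names, and were chosen by symbol. Of 45101 probe sets on the array, 26 named 1 of these genes alone. A further 3 named Phgdh or Tyms together with a pseudogene or another locus and were used for no gene. In kidney RNA, Asns, Mthfd2, Phgdh, Tyms and Psph gave lower signals than in a universal reference RNA at the same input, whereas Mthfd1 and Shmt1 gave higher ones.

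The study set methods of amplifying RNA from nanogram inputs against each other on expression arrays, per its title. The 12 arrays used here all bear the code pRS, which the labels leave unexplained, and fall into 4 groups with 3 arrays each. The first group was mouse kidney RNA bought from Ambion, assayed at 10 ng. The other 3 groups were mouse reference RNA (supplier spelt Strategene), assayed at 0.3, 3 and 10 ng. Universal reference RNA of this kind is known as a commercial pool of RNA from cell lines. The labels give no strain, sex, age or number of animals for the kidney RNA, and no list of the lines in the pool. All arrays thus share 1 labelled protocol code and no treatment, and kidney is set against a mixture of other cells rather than against another organ. The labels do not say whether the 3 arrays of a group came from separate animals, extractions or amplifications, so the p-values measure the spread between these arrays, which may be technical.

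De novo serine synthesis takes a glycolytic intermediate through the enzymes Phgdh, Psat1 and Psph, and serine hydroxymethyltransferases then pass a carbon from serine to tetrahydrofolate, leaving glycine. The folate-bound carbon is interconverted in parallel sets of enzymes in the cytosol and in mitochondria, and feeds purine, thymidylate and methionine synthesis. Several of these genes, among them Asns, Phgdh, Psat1, Shmt2 and Mthfd2, are known targets of the transcription factor ATF4, which is active when amino acids are short or growth signals are strong. Kidney is known as an organ that takes up glycine and releases serine.

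Signals are the deposited linear values, on a scale where the 2% trimmed mean of every array is 500. Group differences are in log2(signal + 3.9), with the group named first minus the other, and understate the change of dim probe sets. Probe sets were called at an adjusted p under 0.05 from limma with Benjamini-Hochberg adjustment over 27022 tested probe sets, and every adjusted p below is of this kind. A gene is read from its brightest probe set unless another is named. A signal under 33.7, the level of 27 bacterial control probe sets, is taken as background.

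The kidney label was borne out by its markers: all 8 kidney tubule markers listed were called higher in kidney RNA than in the reference at 10 ng. Their summed signal was 42053 to 43132 on the kidney arrays and 434.3 to 546.3 on the reference 10 ng arrays. The 10 tested markers of dividing cells were all called lower, with a summed signal of 2512 to 2835 on kidney arrays and 28851 to 29182 on reference 10 ng arrays. Liver markers summed to 10069 to 10620.2 on kidney arrays and 75 to 124.5 on reference 10 ng arrays, red blood cell markers to 9889 to 10562.5 and 31.1 to 50.5, and leukocyte markers to 6807 to 7130.4 and 14164 to 15089. Single genes carried these sums. Ttr averaged 9682 units on kidney arrays, beside 417 for Cps1, 136 for Alb and 64.8 for Apoa1, Hbb-b2 averaged 8746, and Cd3e averaged 6078 on kidney arrays and 10326.5 on reference 10 ng arrays. The ratio of 3′ to 5′ signal for Actb was 5.25 to 5.50 on kidney arrays and 3.62 to 3.94 on reference 10 ng arrays, while that for Gapdh was 1.12 to 1.13 and 1.10 to 1.15. The part of these markers and ratios in the differences below was not tested. In such bulk RNA, fewer cells of a type and less RNA per cell cannot be told apart.

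Of the 9 genes, 2 were called higher in kidney RNA than in the reference at 10 ng, beside 27.1% of all 12820 tested genes, and 5 were called lower, beside 35.6%. The median difference over the 9 genes was -1.16 (range -4.31 to 1.54), against -0.19 over all tested genes. Of all called genes 43.2% were higher in kidney, or 54.6% when each array was centred on its median, which moved the median of all genes up by 0.24 and turned no sign among the 9. Of the 26 probe sets, 24 passed the filter on low signals and 19 of those were called, 7 higher and 12 lower, beside 60.1% of all tested probe sets. The 2 untested probe sets both belong to Tyms.

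**Figure D1:**
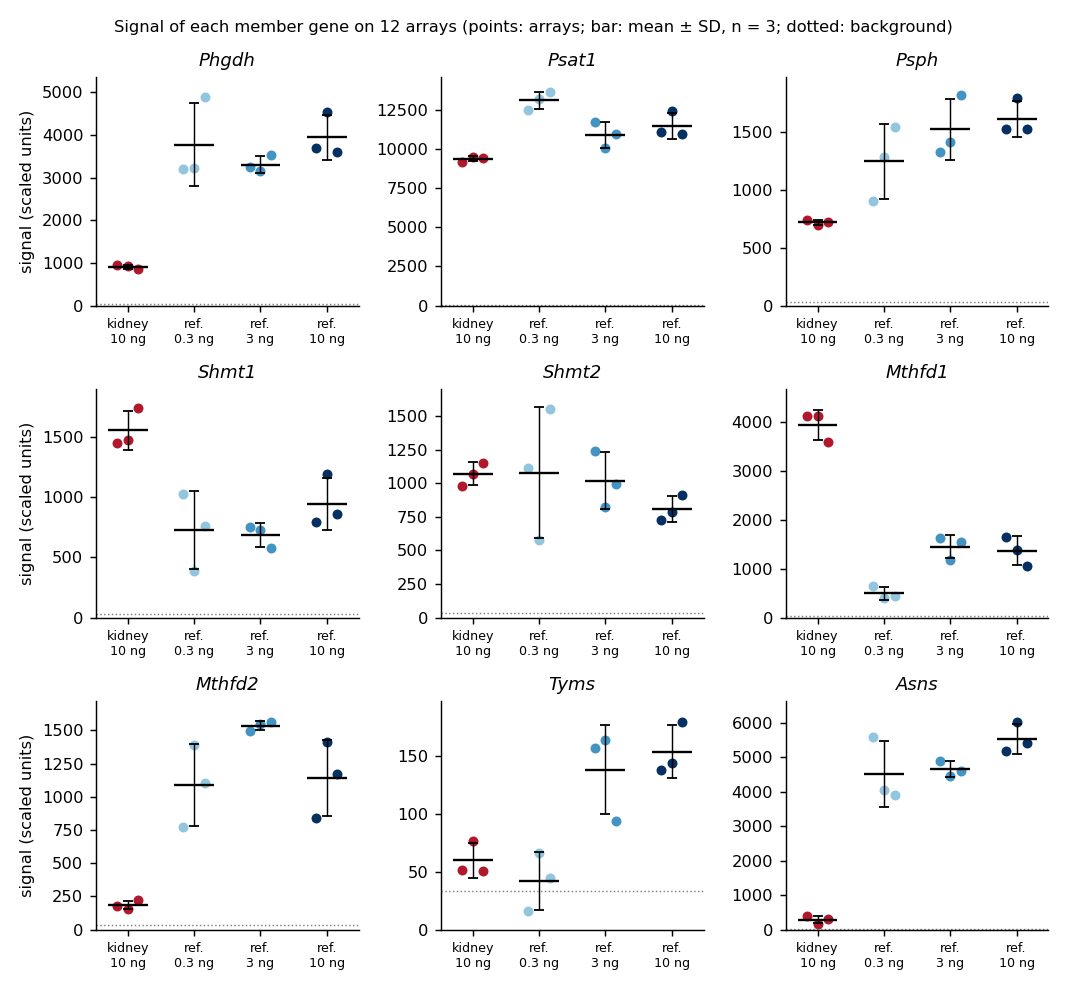
Signal of the brightest probe set of each gene (y axis, scaled units, starting at 0) on the 12 arrays, with kidney 10 ng on the left and the reference at 0.3, 3 and 10 ng to its right. Points are arrays, bars are the mean ± SD of 3 arrays and the dotted line is background. The kidney arrays lie below every reference array for Phgdh, Psat1, Psph, Mthfd2 and Asns, and above every reference array for Shmt1 and Mthfd1.

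Of the serine synthesis enzymes, Phgdh and Psph were called lower in kidney RNA, and Psat1 was called lower by 1 of its 2 probe sets. Phgdh, on chromosome 3, encodes the dehydrogenase that commits 3-phosphoglycerate to serine. It had 944, 920.4 and 862 units on the kidney arrays, against 3683, 4545.5 and 3605 on the reference 10 ng arrays. The reference at 0.3 ng gave 3212, 3217 and 4896.5 units, and at 3 ng 3243, 3146 and 3525.5. Every kidney array lay far below every reference array. The reference at 0.3 ng overlapped the other inputs, while the reference at 3 ng lay wholly under that at 10 ng. The mean was 909 ± 42.2 in kidney and 3944.5 ± 522 in the reference at 10 ng (SD, n = 3 each), a 4.34-fold lower signal in kidney (log2 difference -2.11, SE 0.14, limma adjusted p = 0.000136). All 4 Phgdh probe sets were called lower, with differences from -3.11 to -1.43. Because all 4 carry a suffix that marks probes shared with similar sequences, signal from related transcripts can enter each of them. The brightest probe sets of Asns and Shmt2 carry this suffix too, as does the Mthfd1 probe set with the greatest difference, and that of Psat1 carries a related one. The other Asns probe set carries neither.

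Psat1, on chromosome 19, encodes the aminotransferase that makes phosphoserine, and its difference was small. Its brightest probe set read 9166.5, 9480.3 and 9425 units in kidney, against 11051, 12382 and 10925 in the reference at 10 ng. At 0.3 ng the reference read 12494.5, 13145 and 13615, and at 3 ng 11700.5, 10024 and 10927. The kidney arrays were the lowest of all 12, yet the difference of -0.29 (SE 0.12) did not pass (limma adjusted p = 0.0821). The other probe set of Psat1, with 4439.5, 4894 and 4614 units in kidney and 7216, 8503 and 7051 in the reference at 10 ng, was called lower (-0.70, SE 0.13, limma adjusted p = 0.00609). The gene's call thus depends on which probe set stands for it.

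Psph, on chromosome 5, encodes the phosphatase that releases free serine, and has 1 probe set. It gave 740.3, 695 and 722 units in kidney, against 1529, 1796 and 1524 in the reference at 10 ng. The reference read 907, 1285 and 1546 at 0.3 ng and 1326, 1417 and 1824 at 3 ng, so the kidney arrays were below all 9 reference arrays and varied least. Psph fell by 1.16 on the log2 scale in kidney relative to the reference at 10 ng (SE 0.13, limma adjusted p = 0.000766).

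Of the serine hydroxymethyltransferases, which convert serine to glycine, Shmt1 was called higher in kidney and Shmt2 was not called. Shmt1, the cytosolic enzyme, encoded on chromosome 11, had 1446, 1477 and 1737 units in kidney, against 789.5, 1189 and 856 in the reference at 10 ng. The reference gave 1029, 387 and 760.1 units at 0.3 ng and 752, 731 and 576 at 3 ng. Kidney was above all reference arrays, and the difference from the reference at 10 ng was 0.73 (SE 0.20, limma adjusted p = 0.0212). This call was lost without kidney replicate 3 (0.65, limma adjusted p = 0.0632), without reference 10 ng replicate 1 (0.62, 0.0645) and without reference 10 ng replicate 3 (0.67, 0.0660), and over all alternatives the limma adjusted p ran from 0.000218 to 0.0983. The other 3 Shmt1 probe sets were also called higher, and differed by 0.89 to 1.70.

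The probe set with the greatest Shmt1 difference gave 975, 972 and 980.4 units in kidney, against 308, 247.5 and 345 in the reference at 10 ng, and the 3 kidney values were almost equal. Its difference of 1.70 had an SE of 0.16 (limma adjusted p = 0.000404).

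Shmt2, the mitochondrial enzyme, encoded on chromosome 10, read 983, 1071.5 and 1153 units in kidney, against 723, 789 and 914 in the reference at 10 ng. At 0.3 ng the reference spread widely, over 1113, 574 and 1552 units, and at 3 ng it gave 1242, 823.5 and 995.5. Kidney did not overlap the reference at 10 ng but lay within the range of the reference at 0.3 and 3 ng. The difference from the reference at 10 ng was 0.41 (SE 0.15, limma adjusted p = 0.0557), and 0 of the 4 Shmt2 probe sets were called, with 2 of them at an unadjusted p under 0.05 and differences from 0.10 to 0.41. Without reference 10 ng replicate 3 the brightest of them was called (0.50, limma adjusted p = 0.0467, beside 0.0140 to 0.342 over all alternatives). Within an array, the log2 difference between Shmt1 and Shmt2 was higher in kidney than in the reference at 10 ng by 0.33 (two-sided exact permutation p = 0.4, where 3 against 3 arrays cannot go below 0.1).

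**Figure D2:**
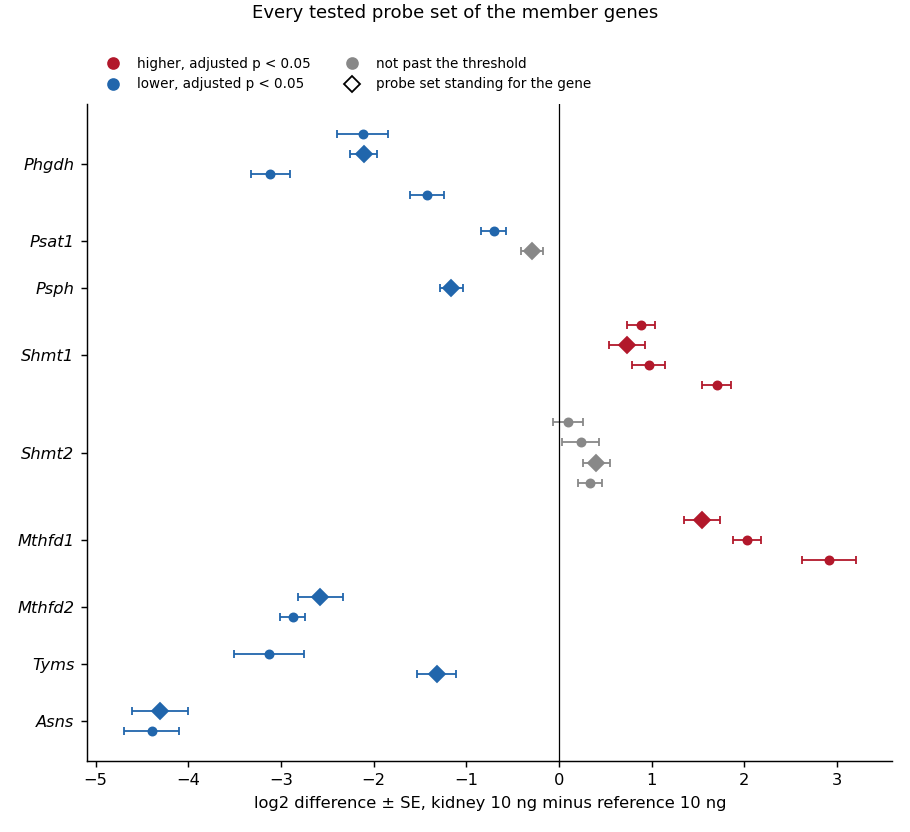
Log2 difference, kidney 10 ng minus reference 10 ng, with its SE (x axis), for each of the 24 tested probe sets, grouped by gene (y axis). Red marks probe sets called higher, blue lower and grey neither, and diamonds are the probe sets that stand for a gene. Asns, Mthfd2, Phgdh, Psph and Tyms lie wholly to the left, Shmt1 and Mthfd1 wholly to the right, and Shmt2 close to 0.

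The folate enzymes Mthfd1 and Mthfd2 moved in opposite directions. Mthfd1, on chromosome 12, encodes the cytosolic enzyme that carries 3 activities in the interconversion of formate, formyl-, methenyl- and methylene-tetrahydrofolate. It had 4126, 4141 and 3592 units in kidney, against 1652, 1395.5 and 1067 in the reference at 10 ng. The reference gave 647, 399.9 and 449.9 units at 0.3 ng and 1629, 1189.7 and 1554 at 3 ng. The order was kidney, then the reference at 3 and 10 ng, which overlapped, and then the reference at 0.3 ng, whose arrays lay below all the others. Kidney averaged 3953 ± 313 and the reference at 10 ng 1371.5 ± 293 (SD, n = 3 each), 2.88-fold higher in kidney (1.54, SE 0.20, limma adjusted p = 0.00126). The other probe sets of Mthfd1 differed by 2.03 and 2.92, so 3 of 3 were called higher and the size depended on the probe set.

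Mthfd2, on chromosome 6, encodes a mitochondrial dehydrogenase and cyclohydrolase of the same pathway, known as abundant in embryonic and dividing cells and scarce in most adult organs. It had 182, 155 and 220.3 units in kidney, against 839, 1409 and 1171 in the reference at 10 ng. At 0.3 ng the reference gave 774, 1386 and 1104 units and at 3 ng 1498, 1544 and 1560.3. All kidney arrays lay under every reference array, the reference at 0.3 and 10 ng overlapped, and the reference at 3 ng was above both. The mean was 186 ± 33.0 in kidney and 1139.7 ± 287 in the reference at 10 ng (SD, n = 3 each), 6.14-fold lower in kidney (-2.57, SE 0.24, limma adjusted p = 0.000423). The other Mthfd2 probe set read 36.2, 36.3 and 37.6 units in kidney, just above background, against 267, 334.5 and 283 in the reference at 10 ng (-2.87, SE 0.14, limma adjusted p = 4.14e-05). Within an array, the log2 difference between Mthfd1 and Mthfd2 was higher in kidney by 4.12 (two-sided exact permutation p = 0.1, the smallest that 3 against 3 arrays allow).

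Tyms, on chromosome 5, encodes thymidylate synthase, which uses methylene-tetrahydrofolate to make the thymidine nucleotide needed for DNA. The probe set that stands for it had 51.5, 76.8 and 50.9 units in kidney, against 137, 144 and 179 in the reference at 10 ng. The reference gave 15.8, 66 and 44.5 units at 0.3 ng, and 156, 164 and 93.9 at 3 ng. Kidney was below the reference at 3 and 10 ng and overlapped the reference at 0.3 ng. The difference from the reference at 10 ng was -1.32 (SE 0.21, limma adjusted p = 0.00307). Another Tyms probe set had 9, 2.8 and 14.8 units in kidney, all under background, against 92.7, 106 and 98.8 in the reference at 10 ng. Against background it was at least 2.95-fold lower in kidney (limma adjusted p = 0.00106). Of the remaining Tyms probe sets, 1 was under background on all 12 arrays and the other on 3 of 3 kidney arrays and 1 of 3 reference 10 ng arrays, and neither was tested.

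A brighter probe set names both Tyms and its pseudogene Tyms-ps, so its signal cannot be given to either. It read 517, 416 and 533.5 units in kidney, against 2066, 2375 and 2171 in the reference at 10 ng (-2.17, SE 0.15, limma adjusted p = 0.000144). The reference read 1332, 2728 and 2156 units at 0.3 ng, so this probe set, unlike the one that stands for Tyms, overlapped between the reference at 0.3 and 10 ng. The probe sets naming Phgdh with Gm8096 and with Gm6756 were also lower in kidney, by 2.51 and 2.27 on the log2 scale.

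Asns, on chromosome 6, encodes the synthetase that makes asparagine from aspartate with glutamine as nitrogen donor, and it had the largest difference of the 9 genes. It had 388, 175 and 304 units in kidney, against 5172, 6015 and 5419 in the reference at 10 ng. The reference gave 5596, 4044 and 3893 units at 0.3 ng and 4895, 4450.3 and 4596 at 3 ng. No kidney array came near any reference array. The reference at 0.3 ng overlapped the other inputs, and the reference at 3 ng lay wholly under that at 10 ng. The mean was 289 ± 107 in kidney and 5535 ± 434 in the reference at 10 ng (SD, n = 3 each), 19.1-fold lower in kidney (-4.31, SE 0.30, limma adjusted p = 0.000149). Of the 9 brightest probe sets, that of Asns also varied most among the kidney arrays, where its log2 SD was 0.58 against a median of 0.26 over tested probe sets. The other Asns probe set showed the same array order in kidney, with 324, 144.5 and 193.5 units, against 4279.7, 4771 and 4393.5 in the reference at 10 ng (-4.40, SE 0.30, limma adjusted p = 0.000136).

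The human ASNS promoter is known for a pair of short elements of the amino acid response, named NSRE-1 and NSRE-2. The mouse stretch is shown because Asns had the largest difference. The RefSeq promoter table (GRCm38.p6) holds 32851 windows of 300 bases, including 10 for the 9 genes, and was searched on both strands. TGATGNAA, the letters of a C/EBP-ATF composite element, occurred in 3.97% of all windows and in 1 of the 9 genes, Asns. GTTACA, the letters of NSRE-2, occurred in 8.25% of windows and in Asns and Tyms. In Asns, TGATGAAA began 23 bases before the annotated start and GTTACA followed after 12 bases, with no overlap. GTTACA began 3 bases before the annotated start, so it runs into the transcript. Capitals mark both matches in the 120 bases below, at chr6:7693200-7693319 on the minus strand, written 5′ to 3′ and ending 10 bases into the transcript.
Asns promoter: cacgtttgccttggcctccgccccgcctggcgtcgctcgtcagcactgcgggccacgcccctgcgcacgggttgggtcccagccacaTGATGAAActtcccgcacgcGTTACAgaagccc
The E2F letters TTTCCCGC and TTTGGCGC, found in 1.07% and 0.514% of windows, were in none of the 9 genes' windows. A match is a string of letters and no measure of binding.

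Other genes of these pathways were read from lists chosen by function. Earlier results of these data were known at that choice, so the counts are not independent of the data. Each count below is to be read beside the 27.1% of all tested genes called higher in kidney and the 35.6% called lower. A list drawn for the glycine cleavage system and for serine and glycine breakdown was called higher in kidney in 9 of 9 tested cases. Its median difference was 3.56, against -0.19 over all tested genes. It also held Dmgdh, Sardh and Pipox, which act on dimethylglycine or sarcosine, and Gnmt, Gatm and Dld, which also serve other pathways. The count is thus not one of glycine and serine breakdown alone. Agxt, also listed, lay under background on all kidney arrays and was not tested. The filter on low signals took the highest group mean. Dmgdh, Gnmt, Gldc and Pipox averaged under 65.4 units in the reference at 10 ng, and so could pass through the kidney arrays. The count and median of this list are thus set in part by the filter. The same can hold in the other lists, in either direction. Dmgdh, dimethylglycine dehydrogenase, averaged 1939.8 ± 317 units in kidney and lay under background on all reference 10 ng arrays, at least 57.1-fold higher (limma adjusted p = 1.24e-05). Pipox, which oxidises sarcosine and pipecolate, averaged 3642 ± 178 units in kidney and 51.6 ± 41.7 in the reference at 10 ng. Gldc, the glycine decarboxylase, averaged 1713 ± 441 units in kidney and 45.9 ± 24.0 in the reference at 10 ng. Each of these groups was of 3 arrays, and the 3 genes were named because their differences were the largest in the list.

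Folate genes divided evenly. Of 15 tested genes for folate uptake, reduction and one-carbon transfer, 7 were called higher and 7 lower, with a median of 0.16. Folr1, a folate receptor, averaged 3872 ± 204 units in kidney and 64.6 ± 36.7 in the reference at 10 ng (6.003, SE 0.47). Aldh1l1, the cytosolic formyltetrahydrofolate dehydrogenase, averaged 3729 ± 146 and 62.4 ± 10.1 (5.83, SE 0.16), and Ftcd, which passes a carbon from histidine breakdown to folate, 227 ± 40.3 and 24.1 ± 14.1 (3.15, SE 0.37). All 3 were called higher, although 2 of 3 reference 10 ng arrays were under background for Ftcd and 1 of 3 for Folr1, as for Pipox and Gldc, so these sizes are imprecise.

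Among the 7 folate genes called lower, the largest differences were those of Mthfd1l, Aldh1l2 and Mthfd2l. Mthfd1l, the mitochondrial formate-producing enzyme, averaged 118 ± 42.7 units in kidney and 1611 ± 324 in the reference at 10 ng (-3.77, SE 0.32). Aldh1l2, the mitochondrial counterpart of Aldh1l1, averaged 86.1 ± 18.8 and 1059.6 ± 43.2 (-3.58, SE 0.18), and Mthfd2l, a relative of Mthfd2, 587 ± 441 and 3145.5 ± 406 (-2.77, SE 0.67). Mtr and Mtrr, the cytosolic methionine synthase and its reductase, were also called lower (-0.76, SE 0.15, and -0.85, SE 0.11), and were picked for mention after their values were seen.

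Methionine cycle and transsulfuration genes were called higher in 5 of 7 tested cases and lower in 1, with a median of 2.96. Mtr and Mtrr, both called lower, were counted in the folate list and not here. The betaine-homocysteine methyltransferases Bhmt2 and Bhmt, which remethylate homocysteine without folate, differed by 5.01 (SE 0.11) and 3.46 (SE 0.53), and Cbs, which commits homocysteine to cysteine, by 3.18 (SE 0.31). Srm, spermidine synthase, was the gene called lower (-1.66, SE 0.17).

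Nucleotide synthesis genes were mostly lower in kidney. The purine list had 1 gene called higher and 10 lower of 14 tested, with a median of -0.74. It held the salvage enzymes Hprt (-0.92) and Aprt (-1.12), both called lower, and without them 1 was called higher and 8 lower of 12, with a median of -0.55. The gene called higher was Prps2, which makes the ribose phosphate precursor, with 1699 ± 169 units in kidney and 967 ± 78.7 in the reference at 10 ng (0.81, SE 0.14). Impdh1, of guanine nucleotide synthesis, differed by -2.63 (SE 0.66) with 1 of 3 kidney arrays under background, Adssl1, of adenine nucleotide synthesis, by -2.03 (SE 0.24), and Atic, which uses formyl-folate for the last steps of inosinate synthesis, by -1.19 (SE 0.22). Pyrimidine and deoxynucleotide genes were called lower in 12 of 17 tested cases and higher in 0, with a median of -1.57. Dut, which supplies the substrate of Tyms, averaged 329 ± 5.24 units in kidney and 4117 ± 336 in the reference at 10 ng (-3.63, SE 0.12). Dctd, which makes the same substrate by deamination, differed by -3.51 (SE 0.61) with 2 of 3 kidney arrays under background, and Uck2, a uridine-cytidine kinase, by -3.12 (SE 0.17). The markers of dividing cells moved with these lists, with a median of -4.02 over 10 genes, among them Bub1, which was under background on all kidney arrays and at least 40.8-fold lower, Cdk1 (-5.09, SE 0.12) and Aurkb (-5.01, SE 0.30, with 2 of 3 kidney arrays under background). Their part in the nucleotide results was not tested.

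**Figure D3:**
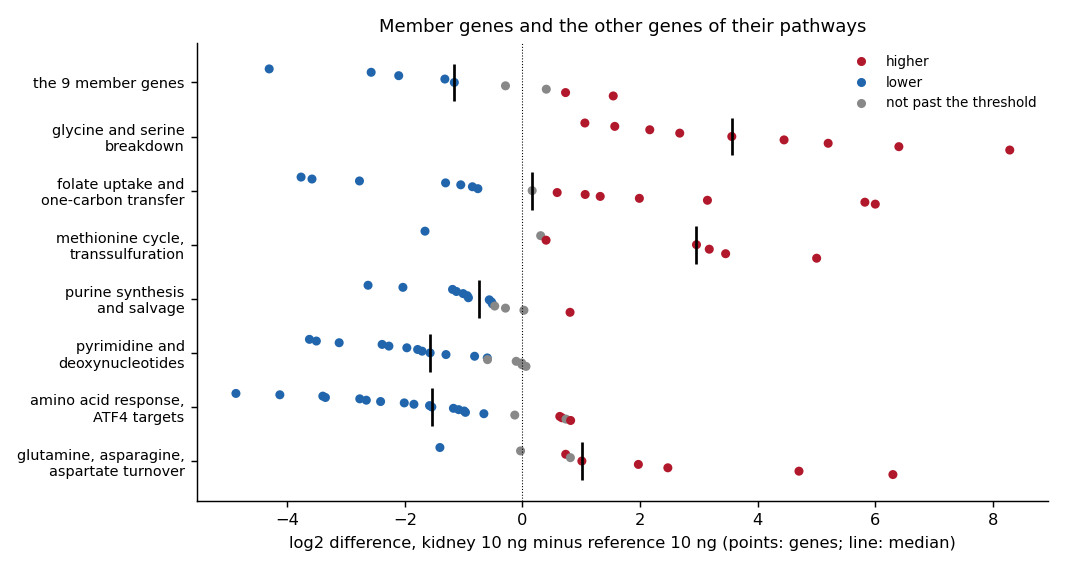
Log2 difference, kidney 10 ng minus reference 10 ng (x axis), of the 9 genes and of the tested genes in 7 pathway lists (rows). Each point is a gene, red if called higher, blue if called lower and grey otherwise, and black lines are medians. The row labelled glycine and serine breakdown, which also holds sarcosine and dimethylglycine genes and genes that serve other pathways, lies wholly to the right. Folate genes lie on both sides, and pyrimidine and amino acid response genes lie mostly to the left.

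Genes of the amino acid response, most of them ATF4 targets, were called lower in 16 of 21 tested cases and higher in 3, with a median of -1.54, or -1.18 with signals under background raised to it. Aldh18a1, which starts proline synthesis from glutamate, averaged 38.8 ± 26.9 units in kidney and 1118.5 ± 191 in the reference at 10 ng (-4.88, SE 0.43), with 2 of 3 kidney arrays under background. Slc7a5, a transporter of large neutral amino acids, averaged 212 ± 16.2 and 3774 ± 158 (-4.13, SE 0.12), and Atf5, a transcription factor of the response, 162 ± 15.99 and 1739 ± 143 (-3.40, SE 0.14). The genes called higher were Got1 (0.82, SE 0.12), Vldlr (0.67, SE 0.14) and Gpt2 (0.63, SE 0.11), of which Got1 and Gpt2 encode aminotransferases and Vldlr a lipoprotein receptor.

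Around Asns, genes of glutamine, asparagine and aspartate turnover were called higher in 6 of 9 tested cases and lower in 1, with a median of 1.01. Aspa, which splits acetylaspartate, averaged 2812 ± 178 units in kidney and 34.6 ± 16.5 in the reference at 10 ng (6.30, SE 0.37), where 1 of 3 arrays was under background. Aspg, an asparaginase, averaged 176 ± 14.2 units in kidney and was under background on all reference 10 ng arrays, at least 5.23-fold higher. Asl, argininosuccinate lyase, differed by 2.47 (SE 0.15). Asrgl1, another asparaginase, was lower in kidney (-1.41, SE 0.34), so the asparaginases did not share a direction.

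Set against the reference at 3 ng, where RNA source and input change together, 2 of the 9 genes were called higher in kidney, beside 26.4% of all tested genes, and 5 lower, beside 31.4%. They were Mthfd1 (1.45, SE 0.18) and Shmt1 (1.18, SE 0.17), and Asns (-4.06, SE 0.30), Mthfd2 (-3.03, SE 0.17), Phgdh (-1.86, SE 0.13), Tyms (-1.14, SE 0.28) and Psph (-1.06, SE 0.17). Psat1 (-0.22, limma adjusted p = 0.212) and Shmt2 (0.08, limma adjusted p = 0.727) were not called. These values share the kidney arrays with the comparison at 10 ng. Of all called genes 45.7% were higher in kidney, or 61.3% with arrays centred on their medians. The Tyms call (limma adjusted p = 0.0174) was lost without kidney replicate 1 or 3 or without reference 3 ng replicate 1 or 2 (limma adjusted p between 0.0540 and 0.0556, and from 0.0097 to 0.0613 over all alternatives).

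Against the reference at 0.3 ng, 1 gene was called higher in kidney, beside 20.9% of all tested genes, and 3 lower, beside 16.7%. Mthfd1 differed by 3.00 (SE 0.27, limma adjusted p = 0.000908), Asns by -3.998 (SE 0.37, limma adjusted p = 0.000984), Mthfd2 by -2.50 (SE 0.31, limma adjusted p = 0.00262) and Phgdh by -2.02 (SE 0.26, limma adjusted p = 0.00311). Shmt1 (1.20, limma adjusted p = 0.0672), Psph (-0.76, 0.0810), Psat1 (-0.48, 0.114) and Shmt2 (0.10, 0.870) were not called. Without reference 0.3 ng replicate 1, Shmt1 (limma adjusted p = 0.0316) and Psph (limma adjusted p = 0.0219) were called. Over all alternatives these limma adjusted p-values ran from 0.0128 to 0.183 for Shmt1 and from 0.0175 to 0.213 for Psph. The probe set that stands for Tyms had the opposite sign from the comparison at 10 ng, 0.63 (SE 0.52, limma adjusted p = 0.385). The other tested Tyms probe set kept its sign (-2.15, SE 0.83, limma adjusted p = 0.0958), with 2 of 3 reference 0.3 ng arrays and all kidney arrays under background. The brighter probe set naming Tyms and Tyms-ps was called lower in kidney (-2.02, SE 0.33, limma adjusted p = 0.00714). The spread between arrays was larger at 0.3 ng, where the median log2 SD of tested probe sets was 0.69, against 0.31 at 3 ng and 0.24 at 10 ng in the reference and 0.26 in kidney. Each limma fit assumes equal spread in both groups, which the 0.3 ng arrays do not meet.

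No gene of the 9 was called between inputs of reference RNA. Between 0.3 and 10 ng, limma called 0 of 9 genes, beside 0.554% of all tested genes called. Between 3 and 10 ng it called 0 of 9, beside 0.0% of all tested genes, and between 0.3 and 3 ng 0 of 9, beside 0.172%. At an unadjusted p under 0.05 there were 2, 0 and 2 of the 9 in these comparisons. The share of all tested genes under that looser threshold was not counted, so these counts have none to be read beside. With all 12 arrays in 1 fit, Mthfd1 and Tyms were called between 0.3 and 10 ng and between 0.3 and 3 ng. That fit called 689 of all tested genes between 0.3 and 10 ng, against 71 with only the compared groups fitted. Between 0.3 and 3 ng it called 542, against 22. It pools the spread of all groups, which is larger at 0.3 ng. Over all alternatives at 0.3 against 10 ng, the limma adjusted p ran from 0.0114 to 0.412 for Mthfd1 and from 0.0294 to 0.471 for Tyms. In the 7 pathway lists, 0 of 92 tested genes were called at 0.3 against 10 ng, with 9 at an unadjusted p under 0.05 (9.78%).

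Mthfd1 and Tyms were the 2 genes with small unadjusted p-values. Mthfd1 averaged 499 ± 131 units at 0.3 ng and 1371.5 ± 293 at 10 ng (SD, n = 3 each), and the groups did not overlap (-1.46, SE 0.31, limma adjusted p = 0.116). Another of its probe sets read 215, 213 and 214 units at 0.3 ng, against 878, 492 and 422 at 10 ng (-1.39, SE 0.33, limma adjusted p = 0.143). The last read 224, 299.8 and 263 units at 0.3 ng, against 409.6, 319 and 326 at 10 ng (-0.42, SE 0.25, limma adjusted p = 0.475). None of the 3 probe sets of Mthfd1 was called, and they read the same RNA on the same arrays, so they are not separate evidence. Overlap between 0.3 and 10 ng was not counted over all probe sets, so its absence here has no share to be read beside. Against 3 ng, Mthfd1 differed by -1.56 (SE 0.30, limma adjusted p = 0.132).

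**Figure D4:**
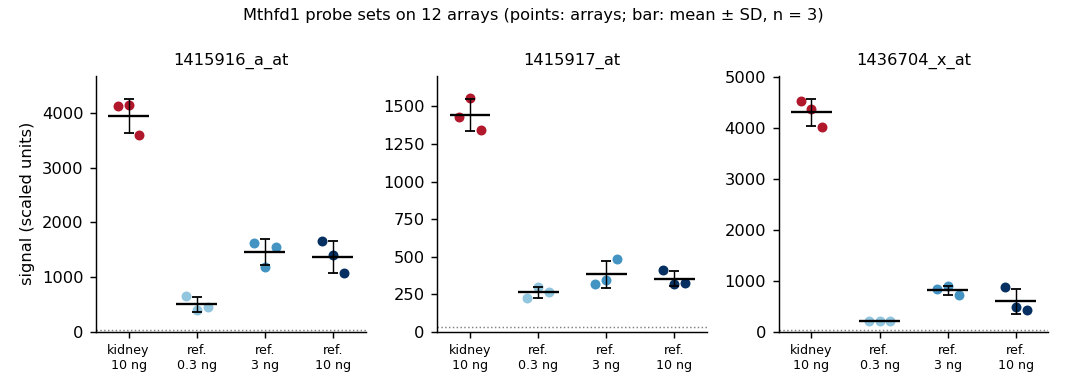
Signal of the 3 Mthfd1 probe sets (y axes, scaled units, starting at 0, 1 panel each) on the 12 arrays, with kidney 10 ng on the left and the reference at 0.3, 3 and 10 ng to its right. Points are arrays, bars the mean ± SD of 3 arrays and the dotted line background. Kidney is highest in each panel, and the 0.3 ng arrays lie below the 10 ng arrays in each.

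Tyms averaged 42.1 ± 25.2 units at 0.3 ng, with 1 of 3 arrays under background, and 153 ± 22.6 at 10 ng (-1.95, SE 0.50, limma adjusted p = 0.163), without overlap. Against 3 ng it differed by -1.77 (SE 0.54, limma adjusted p = 0.256). Its other tested probe set had 23.4, 26.2 and 168 units at 0.3 ng, against 92.7, 106 and 98.8 at 10 ng, so 1 array at 0.3 ng lay above the 10 ng arrays and the other two under background. The other 7 genes differed between 0.3 and 10 ng by -0.47 to 0.31 and between 3 and 10 ng by -0.45 to 0.46. Within an array, the log2 difference between Mthfd1 and Mthfd2 was lower at 0.3 than at 10 ng by 1.38, and that between Shmt1 and Shmt2 by 0.78 (two-sided exact permutation p = 0.1 for each, the smallest possible). The Shmt1 gap was not particular to 0.3 ng, with means of -0.57 at 0.3 ng, -0.56 at 3 ng and 0.21 at 10 ng. For Mthfd1 and Mthfd2 the means were -1.11, -0.09 and 0.28.

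The genes whose profile over the 12 arrays was most like each of the 9 were found by the root mean square difference of log2 values, each centred on its own mean, among 12819 other genes. Asns was nearest to Sh3pxd2b (0.23), Col5a1 (0.26) and Ptgs2 (0.26), and Mthfd2 to Ccn4 (0.29), Hnrnpa1 (0.30) and Nemp2 (0.30). Phgdh was nearest to Nfat5 (0.15), Rnaseh2a (0.16) and Selenoh (0.16), Psph to Ephx1 (0.13), Cse1l (0.14) and Dnajc9 (0.16), and Psat1 to Hdgf, Supt6 and Gnb1 (0.05 to 0.06). Mthfd1 was nearest to Nfs1 (0.17), Pex7 (0.27) and Scly (0.30), Shmt1 to Cyb5r4 (0.19), Psmb10 (0.21) and Ndufv2 (0.21), and Shmt2 to Thsd7a (0.20), Crk (0.21) and Sco2 (0.23). Tyms had the least like neighbours, Zfp746 (0.35), Rab40c (0.36) and Nsmce3 (0.38). None of the 9 was among the 3 nearest of another, and genes that vary little over the arrays, such as Psat1, lie close to many others.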

How the data were processed

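Kidney and reference RNA were hybridised to 12 arrays, 3 per group, and sample titles gave each array its group, input and replicate number. The authors deposited linear intensities for every probe set, and on each array their 2% trimmed mean came to 500. How probes were summarised, background was corrected and RNA was amplified is not stated in the labels. Log2 values were taken after adding 3.9, the 10th percentile of positive values. Of 45101 probe sets, those whose highest group mean of log2 values lay above the 40th percentile (a signal of 65.4) were tested, 27022 in all, without 64 control probe sets. The brightest probe set over all arrays, among those with no other gene's symbol, stood for a gene. The 27 Bacillus controls set the background at their 95th percentile (33.7), and a fold against a group wholly under it is a lower bound. Fits used lmFit and eBayes from limma 3.58.1 (R 4.3.3), two-sided, on the 2 groups compared, with Benjamini-Hochberg adjustment over the 27022 and a threshold of 0.05. The fits were tested on simulated data. Named were all 9 genes with every probe set and, in each list, up to 3 called genes per direction with the largest difference between kidney and the reference at 10 ng. The genes and lists were chosen with earlier results of these data known. Promoter sequence is RefSeq's, of GRCm38.p6, while the deposited values name no build. The number of arrays limits the precision.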

Additional observations from a re-analysis of the deposited data

How the results depend on the processing

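Alternatives were other pseudocounts (1 and 16), no filter on low signals or one on the mean over every array, quantile normalization, arrays centred on their medians, signals under background raised to it, all 12 arrays in 1 fit, an intensity trend, the median over a gene's probe sets, a replicate block and leaving out each array. For kidney against the reference at 10 ng the 7 called genes became 6 to 9, and 6 to 7 with an array left out; against 3 ng 6 to 8, and 6 to 7; against 0.3 ng the 4 became 4 to 7, and 4 to 6. All 12 arrays in 1 fit gave 7 genes called for kidney against the reference at 0.3 ng, and 2 each for the reference at 0.3 against 10 ng and against 3 ng, namely Mthfd1 (limma adjusted p = 0.0114 and 0.00892) and Tyms (0.0294 and 0.0437). In that fit, and with no filter, Shmt1 was not called between kidney and the reference at 10 ng (limma adjusted p = 0.0983 and 0.0544), and the Tyms call at 3 ng was lost in that fit, under quantile normalization and under centring (0.0505, 0.0597 and 0.0613). At 10 ng Psat1 was called with an intensity trend and with the median over probe sets (0.00279 and 0.0176), and Shmt2 with a trend, under centring, with signals raised to background and without reference 10 ng replicate 3 (0.0312, 0.0140, 0.0397 and 0.0467). Signs turned, with no call either way, in these cases. Under centring they were Psat1 (0.13) for kidney against 3 ng, Shmt2 (-0.091) for kidney against 0.3 ng, Phgdh (0.35), Psph (0.027), Mthfd2 (0.36) and Asns (0.12) for 0.3 against 10 ng, and Mthfd1 (-0.00174) for 3 against 10 ng. Quantile normalization turned Psat1 (-0.049), and the median over probe sets Shmt2 (-0.11), for 0.3 against 10 ng. Leaving out 1 array gave ranges that crossed 0 for Shmt2 in kidney against 3 ng (-0.059 to 0.24) and against 0.3 ng (-0.30 to 0.41), for Phgdh (-0.29 to 0.022), Mthfd2 (-0.28 to 0.15) and Shmt2 (-0.0092 to 0.70) in 0.3 against 10 ng, and for Mthfd1 (-0.072 to 0.24) and Tyms (-0.32 to 0.068) in 3 against 10 ng. The replicate numbers gave no sign of a pairing of the arrays. Same-numbered arrays had correlations of their deviations between -0.06 and 0.02 over 18 pairs, 0 of them over 0.1. In 6 of 18 comparisons of an array with the arrays of another group, the best correlation was with its own number. With the replicate block, 7, 7 and 4 of the 9 genes were called for kidney against 10, 3 and 0.3 ng and 0 between reference inputs. Centring moved the median of all genes for kidney against the reference at 10 ng to 0.05 and the share of higher calls to 54.6%, against -0.19 and 43.2% as reported, with no sign turned among the 9 genes. All-gene counts for 0.3 against 10 ng ran from 0 to 689 (71 as reported), for 0.3 against 3 ng from 0 to 542 (22), and for kidney against 0.3 ng down to 2922 without a kidney array (4815). The counts of 689 and 542 came from all 12 arrays in 1 fit, which pools the spread of all groups. Probe sets near background, such as those of Tyms, have the least precise differences.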
